A study of Danio rerio with 19 samples.

Results

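Whole zebrafish larvae exposed to atorvastatin at 1 µg/L (AVS high) were compared with larvae exposed to afidopyropen at 100 ng/L (Afid low), in 7 RNA-seq libraries of the 19 in the series. The 4 AVS high libraries are replicates 1 to 4, and the 3 Afid low libraries are replicates 1, 2 and 4. They were chosen by the labelled compound and dose, not by any measured value. Other groups are 4 larval libraries of the control medium, named ERM in the labels, and 4 of atorvastatin at 100 ng/L (AVS low). A further 4, of afidopyropen at 1 µg/L, had no counts available here and are not used. Compound and dose both differ between the groups compared, so the part of each cannot be told apart. The age of the larvae, the length of exposure and any strain are not stated in the labels. Nor do they say whether replicates came from separate tanks or clutches, so each p-value reflects spread between these libraries, which may be technical.

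Atorvastatin, a statin, lowers cholesterol by blocking HMG-CoA reductase, the rate-limiting enzyme of the mevalonate pathway, which feeds cholesterol, coenzyme Q and the lipid tails of prenylated proteins. When sterols run low in vertebrate cells, the transcription factor encoded by srebf2 is activated with the help of its escort Scap and raises sterol synthesis and uptake genes. Afidopyropen is used against sap-feeding insects, whose stretch-sensing organs it disturbs through their TRPV channels, and fish carry TRPV channels of their own. Larval brain and spinal cord add many transcripts to a whole-body library, among them long genes for synaptic scaffolds, ion channels and transmitter receptors.

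The AVS high libraries held 8.63 to 14.4 M reads in genes and the Afid low libraries 10.2 to 12.3 M. Ribosomal protein genes took 9.60% ± 1.5 of reads in AVS high (SD, n = 4) and 7.92% ± 1.39 in Afid low (SD, n = 3). The biological coefficient of variation was 0.286 within AVS high and 0.205 within Afid low. Of 23 tissue markers 22 were listed, and actc1b of muscle (17600 to 35400 counts per M, CPM), krt4 of skin (3410 to 7920) and snap25a of neurons (382 to 567) were high in every library. The muscle marker mylpfa (0 to 0.381 CPM), the pancreas marker ctrb1 (0 to 0.526), the macrophage marker mpeg1.1 (0.0769 to 0.736) and krt5 (0.354 to 1.52) were at or near 0 although other markers of muscle, pancreas and skin were not. AVS low replicate 1, which is in neither group, stands apart on the genes described next, and the count of calls is given with and without it.

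Of 19039 genes tested, 202 were lower in AVS high than in Afid low (1.06% of genes tested) and 3 were higher (0.0158%), 205 in all (1.08%), by edgeR's quasi-likelihood test at a Benjamini-Hochberg adjusted p of 0.05. The genes lower in AVS high include voltage-gated ion channels, transmitter receptors and scaffolds of the synapse, and their log2 differences ran from −3.49 to −0.75 with a median of −1.29. The median over all tested genes was 0.03, and 52.3% of tested genes were higher in AVS high. Before adjustment, 1794 genes were lower at p under 0.05 (9.42%) and 1370 were higher (7.20%). DESeq2 called 602 lower (3.11% of its 19361 genes) and 160 higher (0.826%), among them all 205 genes of the edgeR call in the same direction. All 205 also had no overlap between the 7 libraries, as had 8.54% of tested genes on the lower side and 8.55% on the higher side.

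The count depended on which libraries entered the fit. With all 15 libraries in 1 fit no gene passed in either direction (smallest adjusted p 0.149 by edgeR, with 2888 genes at an unadjusted p under 0.05), and with AVS low replicate 1 left out of that fit 243 were lower and 4 higher, 166 of them shared with the lower call. In fits of the 2 groups alone, leaving out AVS high replicate 1 gave 443 genes lower and leaving out replicate 4 of that group gave 67. Without Afid low replicates 1, 2 and 4 in turn, 36, 46 and 22 were lower. The direction of all 205 genes was the same in each of these fits, which adds no support. The genes were called on these same libraries and their groups did not overlap, so such refits could hardly turn a direction.

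The gene of smallest p was CU467961.1 (ENSDARG00000078270, chromosome 5, 54945021 to 55114917, minus strand), which the gene name table pairs with mast4, a microtubule-associated kinase. In the deposited annotation the counted gene model is classed as a lincRNA, a long non-coding RNA. Coordinates are those of the deposited tables, whose genome build is not given in the sources used here. It measured 15.9, 17.2, 19.4 and 14.3 CPM in AVS high and 52.7, 54.8 and 51.1 CPM in Afid low. The highest AVS high library was below the lowest Afid low library by a wide margin, and the group means of 16.7 ± 2.17 CPM (SD, n = 4) and 52.9 ± 1.84 (SD, n = 3) differ 3.17-fold. The log2 difference was −1.66 ± 0.17 (SE), with an adjusted p of 0.0020 by edgeR. The control mean of 37.2 ± 13.8 CPM (SD, n = 4) lay between the groups.

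The potassium-chloride cotransporter gene slc12a5b (chromosome 8, 37280532 to 37391372, minus strand) encodes the transporter that keeps chloride low in neurons, on which inhibition by GABA depends. Its levels were 22.7, 22.4, 28.3 and 13.7 CPM in AVS high and 89.9, 70.7 and 76.3 CPM in Afid low. All 4 AVS high libraries were also below the 4 control libraries, which held 72.6, 56.0, 50.2 and 59.09 CPM. AVS low replicate 1 measured 15.5 CPM, within the AVS high range, and the other AVS low libraries 33.1, 88.9 and 60.8 CPM. The difference between AVS high and Afid low was 3.65-fold (log2 −1.87 ± 0.22 SE, adjusted p 0.0037 by edgeR). Of the 13 tested members of its family, 10 were lower and slc12a5b alone was called, with a family median of −0.16 (−0.33 without Afid low replicate 1).

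CABZ01086611.1 (chromosome 8, 53794022 to 53803429, minus strand), which the gene name table pairs with bassoon, a scaffold of the presynaptic active zone, measured 13.9, 25.4, 16.2 and 21.4 CPM in AVS high and 62.8, 90.8 and 59.3 CPM in Afid low. The groups were 3.69-fold apart and did not overlap (log2 −1.88 ± 0.24 SE, adjusted p 0.0058 by edgeR). A second bassoon gene, bsnb, measured 98.4, 86.2, 58.8 and 58.9 CPM in AVS high and 123, 157 and 157 CPM in Afid low, for a log2 difference of −0.95 ± 0.21 (SE, adjusted p 0.0457 by edgeR). Whether the authors' counting split reads between these gene models is not given in the sources used here.

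The next genes of smallest p had no overlap between the groups either. The zinc finger gene hivep3a measured 9.75 to 14.3 CPM in AVS high and 40.5 to 46.5 in Afid low (log2 −1.75 ± 0.18 SE, adjusted p 0.0020 by edgeR). The chromatin regulator gene ankrd11 measured 18.7 to 30.7 CPM against 69.5 to 80.3 (log2 −1.65). The neuron navigator gene nav1b, of microtubule-bound growth cone proteins, measured 11.1 to 16.9 CPM against 36.4 to 44.3 (log2 −1.67). The synaptic vesicle amino acid transporter gene slc6a17 measured 9.34 to 10.5 CPM against 23.1 to 35.4 (log2 −1.56), and its 4 AVS high libraries lay closest together. The gene mkl2a, of a coactivator of serum response factor, measured 3.15 to 6.82 CPM against 16.7 to 19.8 (log2 −2.13). The oxysterol-binding protein gene osbpl2a, of a family that moves sterols and phospholipids between membranes, measured 6.80 to 10.6 CPM against 22.6 to 28.3 (log2 −1.57). With mcf2l2, a guanine exchange factor gene (4.23 to 7.83 against 17.4 to 22.7 CPM, log2 −1.82), the 10 genes of smallest p stayed past the threshold in all 7 edgeR fits that left out 1 library. The highest adjusted p in those fits was 0.0459 (mcf2l2, osbpl2a and slc6a17), and no gene of the 10 passed in the fit of 15 libraries.

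**Figure D1:**
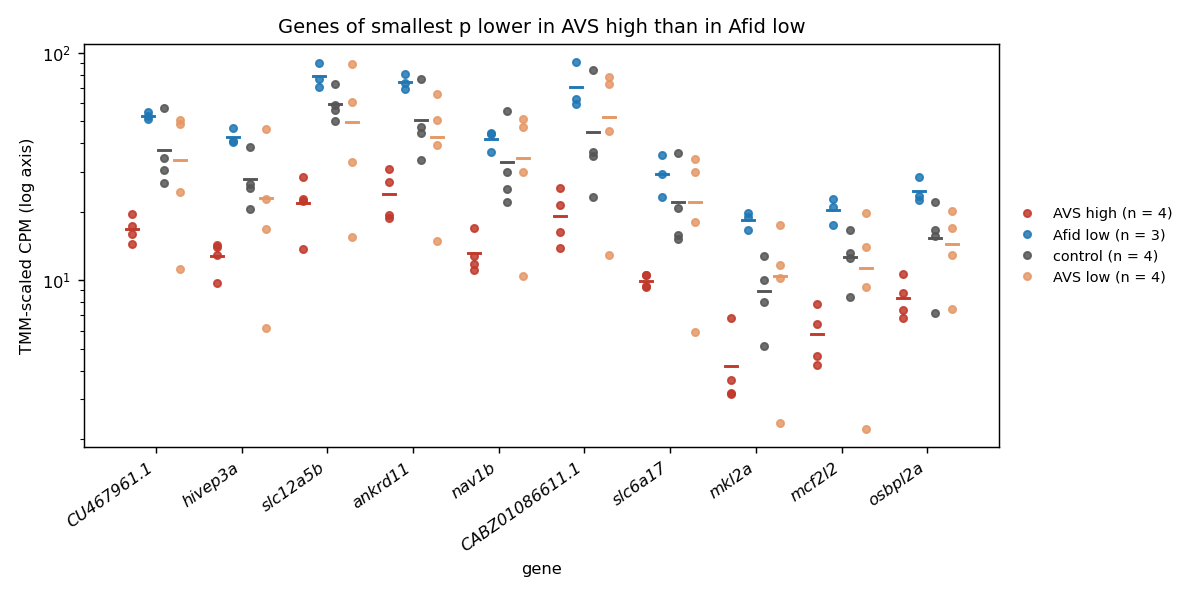
TMM-scaled CPM (log axis) of the 10 genes of smallest p lower in AVS high; each point is 1 library and each short line a group mean. The AVS high points lie below the Afid low points for every gene, and control and AVS low points spread between and around them, with AVS low replicate 1 the lowest point for each gene except slc12a5b and osbpl2a.

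The list of voltage-gated ion channels, which set the firing of neurons and muscle, held the most called genes of the 46 lists and also the most tested members. It also takes in auxiliary subunits and inward rectifiers such as kcnj14. The share of the list called lower, 6.76%, was below that of the neuron (7.94%), cation-chloride cotransporter (7.69%, 1 of 13) and transmitter synthesis and loading (6.9%) lists. Of 148 tested potassium, sodium and calcium channel genes, 106 were lower in AVS high, 10 were called lower and none higher, against 1.06% of all genes called lower. All 46 lists were chosen with earlier results of these data known, so such shares describe and do not test. The list median was −0.28 (−0.44 without Afid low replicate 1), and 42 members were lower and 4 higher at an unadjusted p under 0.05. Among 14 sodium channel genes 13 were lower, with 3 called, all of beta subunits, and a median log2 difference of −0.89. Of 88 potassium channel genes 60 were lower with 5 called (median −0.20), and of 46 calcium channel genes 33 were lower with 2 called (median −0.26).

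The sodium channel beta subunit gene scn4ba measured 1.47, 2.00, 2.19 and 2.72 CPM in AVS high and 9.996, 7.84 and 7.78 CPM in Afid low. It was 4.03-fold lower in AVS high (log2 −2.01 ± 0.31 SE, adjusted p 0.0098 by edgeR), and its call was lost without Afid low replicate 1 or 4 (adjusted p up to 0.0564 by edgeR). Both genes of the presynaptic P/Q-type calcium channel, which admits the calcium that triggers transmitter release, were called. For cacna1aa the AVS high libraries held 73.6, 77.7, 64.7 and 68.6 CPM and the Afid low libraries 121, 162 and 138 CPM, a 1.97-fold difference (log2 −0.98 ± 0.17 SE, adjusted p 0.0162 by edgeR). Its paralogue cacna1ab held 26.2 to 41.9 CPM against 64.0 to 87.4 (log2 −1.09). The call of cacna1aa was lost without AVS high replicate 4 or without Afid low replicate 2 or 4, with adjusted p up to 0.113 by edgeR.

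Potassium channel genes called lower were kcna1a and kcna2b, of the delayed rectifiers found along axons, kcnq2b of the M-current that damps repetitive firing, KCNB2 and the inward rectifier gene kcnj14. Their log2 differences were −1.14, −1.31, −1.10, −1.44 and −2.09. The low-count gene kcnj14 measured 3.05, 0.625, 1.43 and 1.59 CPM in AVS high and 6.38, 7.92 and 7.14 CPM in Afid low. The sodium channel beta subunit genes scn1ba (log2 −1.26) and scn2b (log2 −1.28) were the remaining calls, with 4.53 to 7.88 CPM against 11.9 to 15.3 for scn1ba and 7.55 to 16 CPM against 23.7 to 33.5 for scn2b.

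Transmitter receptors, the other side of the synapse, were lower for 44 of 65 tested glutamate, GABA and glycine receptor genes (median −0.23, or −0.36 without AVS high replicate 2), and 4 were called lower. The share called lower was 6.15%, against 1.06% of all tested genes. The metabotropic GABA receptor gene gabbr1a measured 5.89, 6.50, 6.15 and 7.25 CPM in AVS high and 13.3, 19.5 and 12.4 CPM in Afid low. The groups did not overlap (log2 −1.23 ± 0.24 SE, adjusted p 0.0260 by edgeR). The NMDA receptor gene grin2db held 3.36 to 6.25 CPM in AVS high against 9.71 to 12.5 in Afid low (log2 −1.41). The call of gabbr1a was lost without AVS high replicate 4 and without each Afid low library in turn, with adjusted p up to 0.185 by edgeR.

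Among 29 genes of transmitter synthesis and loading, 18 were lower and 2 were called (6.9%, against 1.06% of all tested genes). The vesicular glutamate transporter gene slc17a6a, a marker of excitatory neurons, measured 12.2, 17.2, 17.8 and 9.44 CPM in AVS high and 37.4, 34.2 and 32.0 CPM in Afid low (log2 −1.29 ± 0.23 SE, adjusted p 0.0190 by edgeR). The GABA reuptake transporter gene slc6a1a, of inhibitory synapses, measured 58.1, 71.2, 64.1 and 51.0 CPM against 119, 97.2 and 103 CPM (log2 −0.80 ± 0.17 SE, adjusted p 0.0432 by edgeR). In both genes every AVS high library was below every Afid low library. The call of slc17a6a was lost without any 1 Afid low library (adjusted p up to 0.0832 by edgeR), and that of slc6a1a also without AVS high replicate 1 or 4 (up to 0.182).

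The neuron list had a median of −0.03 (−0.14 without Afid low replicate 1 and 0.04 without Afid low replicate 2), with 33 of 63 members lower, 30 higher and 5 called lower by edgeR. DESeq2 called 7 members lower and 2 higher. The 5 called by edgeR were scaffold and priming genes of the synapse. The postsynaptic density gene dlg4a measured 7.46, 9.50, 11.1 and 5.21 CPM in AVS high and 19.3, 19.1 and 18.96 CPM in Afid low (log2 −1.21 ± 0.25 SE, adjusted p 0.0366 by edgeR). The presynaptic genes rims1b, unc13ba and pclob had log2 differences of −1.05, −1.28 and −1.09, and bsnb is given above. The calls of dlg4a and rims1b were each lost on leaving out AVS high replicate 4 or any 1 Afid low library, and that of rims1b also on leaving out AVS high replicate 3, with adjusted p up to 0.154 and 0.221 by edgeR.

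Of the general neuronal markers named next, edgeR called none, and they differed in direction. The vesicle fusion gene snap25a measured 567, 473, 483 and 382 CPM in AVS high and 489, 480 and 431 CPM in Afid low, a log2 difference of 0.02 ± 0.17 (SE). The calcium sensor gene syt1a differed by 0.01 ± 0.20 (SE), elavl4 by −0.03 ± 0.18 (SE) and gap43 by 0.15 ± 0.21 (SE), none of them past the threshold. The neuronal RNA-binding protein gene elavl3 measured 248, 156, 189 and 131 CPM in AVS high and 318, 323 and 338 CPM in Afid low, without overlap, and did not pass by edgeR (log2 −0.86 ± 0.20 SE, adjusted p 0.0574 by edgeR and 0.0041 by DESeq2). The tubulin-binding gene stmn2b measured 61.1 to 96.6 CPM against 40.9 to 55.0 and did not pass either (log2 0.63). In whole-larva RNA, fewer cells of a type and less RNA per cell cannot be told apart.

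The synaptic genes were then counted by family, in lists put together after their values were seen. Their counts and medians therefore describe and do not test, beside 1.06% of all tested genes called lower. Of 58 tested genes of the presynaptic active zone and vesicle priming, 38 were lower, 13 of them called, and the median was −0.33. Besides those named, the called genes include erc2 (6.42 to 8.50 CPM in AVS high against 17.5 to 23.1 in Afid low, log2 −1.44), SYT2 (log2 −1.51), rims4 (log2 −1.22), cadpsa (log2 −1.04) and rimbp2 (log2 −0.96). Of 46 postsynaptic scaffold genes 28 were lower, 6 of them called, and the median was −0.12. Among those called, dlgap4b measured 3.40 to 7.91 CPM against 16.4 to 22.6 (log2 −1.62) and mpp2a 11.3 to 14.6 CPM against 27.1 to 28.6 (log2 −1.05).

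**Figure D2:**
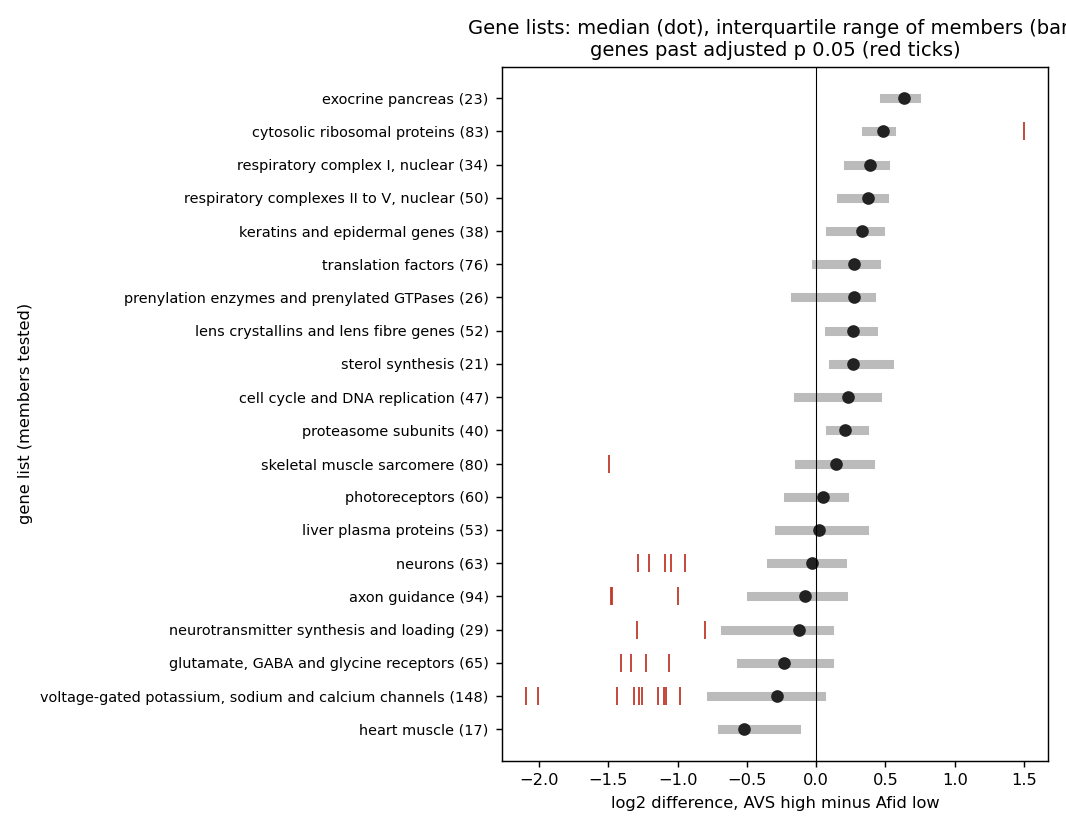
Log2 differences between AVS high and Afid low by gene list: dots are list medians, bars the interquartile range of the tested members, red ticks the genes past an adjusted p of 0.05 (edgeR). Called genes lie at the lower end of the channel, receptor, transmitter, axon guidance and neuron lists, whose medians run from −0.28 to −0.03, while ribosomal protein genes lie to the right with a median of 0.48.

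Axon guidance genes, which steer growing axons, had 3 called of 94 tested (3.19%, against 1.06% of all tested genes), with 53 lower. The list median was −0.08, which was 0.05 without AVS high replicate 1, 0.03 without Afid low replicate 2 and −0.21 without Afid low replicate 1. The Slit-Robo GTPase-activating gene srgap3 measured 12.1, 17, 15.1 and 12.01 CPM in AVS high and 38.5, 47.4 and 31.3 CPM in Afid low (log2 −1.48 ± 0.21 SE, adjusted p 0.0084 by edgeR). The ephrin receptor gene epha4b measured 11.5, 12.9, 12.3 and 7.32 CPM against 29.6, 30.6 and 30.6 CPM (log2 −1.47 ± 0.21 SE, adjusted p 0.0084 by edgeR). The semaphorin receptor gene plxna1a was the third (log2 −0.9996). The groups did not overlap for any of these genes. The call of srgap3 held without any 1 library, and that of epha4b was lost without Afid low replicate 4 (adjusted p 0.0564 by edgeR).

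Of the 202 genes lower in AVS high, 30 are in any of the 46 lists, which hold 1952 of the tested genes, and 24 of those are in the 5 nervous system lists. Those of the 202 outside the 30 are in none of the 46 lists. The histone H3K27 demethylase gene kdm6bb measured 29.2, 28.4, 24.8 and 20.8 CPM in AVS high and 60.3, 57.4 and 55.2 CPM in Afid low (log2 −1.16 ± 0.17 SE, adjusted p 0.0092 by edgeR). With prdm2a (log2 −1.03) it made 2 called of 77 chromatin modifier genes, or 2.6% against 1.06% of all tested genes. The list median was 0.05 (−0.08 without Afid low replicate 1 and −0.01 without AVS high replicate 2). Among 33 clock genes nfil3-6, of a family of repressors in circadian circuits, was called (84.3 to 180 CPM against 224 to 271, log2 −1.03). Of the called genes named in this paragraph, kdm6bb lost its call without Afid low replicate 4 alone (adjusted p 0.0564 by edgeR), while nfil3-6 and prdm2a kept theirs only without AVS high replicate 1.

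Of 80 skeletal muscle genes 53 were higher and 27 lower, with a median of 0.15, and the giant scaffold gene obscnb alone was called lower. That is 1.25% of the list, near the 1.06% of all tested genes. It measured 20.8, 8.12, 11.95 and 13.3 CPM in AVS high and 43.0, 29.5 and 41.2 CPM in Afid low (log2 −1.49 ± 0.26 SE, adjusted p 0.0188 by edgeR), and the call was lost without AVS high replicate 4 or Afid low replicate 1 or 4 (up to 0.0991). The titin gene ttn.2 measured 1326, 492, 287 and 551 CPM against 2264, 1187 and 2029 CPM, so that AVS high replicate 1 lay within the Afid low range, and it did not pass (log2 −1.47, adjusted p 0.0914 by edgeR). Chosen after their values were seen, the actin-binding gene xirp2b, in no list, was called with 36.2 to 67.8 CPM against 121 to 153 (log2 −1.47), as were lama2 of the muscle basement membrane (log2 −1.64) and the plectin gene plecb (log2 −0.94). The actin gene actc1b measured 22254 to 35376 CPM against 17614 to 24438 and the groups overlapped (log2 0.54). Of 17 heart muscle genes 13 were lower (median −0.52, or −0.35 without AVS high replicate 2 and −0.32 without Afid low replicate 1), none was called by edgeR and 1 was called lower by DESeq2, and the heart light chain gene myl7 differed by 0.04 ± 0.27 (SE). Among 26 red cell genes the spectrin gene sptb alone was called by edgeR (29.7 to 45.4 CPM against 62.8 to 65.1, log2 −0.77), and its call held only without AVS high replicate 1. DESeq2 called 1 red cell gene lower and 2 higher, among the latter the globin gene hbae3 (log2 0.87, adjusted p 0.0161 by DESeq2 and 0.0914 by edgeR).

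The genes lower in AVS high spanned long stretches of the genome. Their median span was 61.4 kb against 17.7 kb for all tested genes, and their median exonic length 3198 bases against 2473. By decile of span, the share called lower was 0.158% of the shortest genes and 3.47% of the longest, and the median log2 difference was 0.10 in the shortest and −0.11 in the longest. Of the 202 genes, 145 lay in the 3 longest deciles, from 33.6 kb upwards. Within those deciles 17 of 266 genes of the 5 nervous system lists were called lower (6.39%) and 128 of 5446 other genes (2.35%), and in the 7 shorter deciles 7 of 133 (5.26%) and 50 of 13194 (0.379%). With the trend over span removed from the log2 differences, the median of the channel list moved from −0.28 to −0.21 and that of the receptor list from −0.23 to −0.12. Those of axon guidance (−0.08 to 0.02) and neurons (−0.03 to 0.08) turned positive, while that of transmitter synthesis and loading hardly moved (−0.12 to −0.13). The median of the 202 called genes went from −1.29 to −1.24 and 100% stayed negative, which their choice for large differences favoured. The other genes are those outside the 5 lists and include called neuronal genes such as slc12a5b and slc6a17. The nervous system lists were chosen with earlier results of these data known, so their shares beside other genes are description alone. The part of gene length in the calls was not tested.

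**Figure D3:**
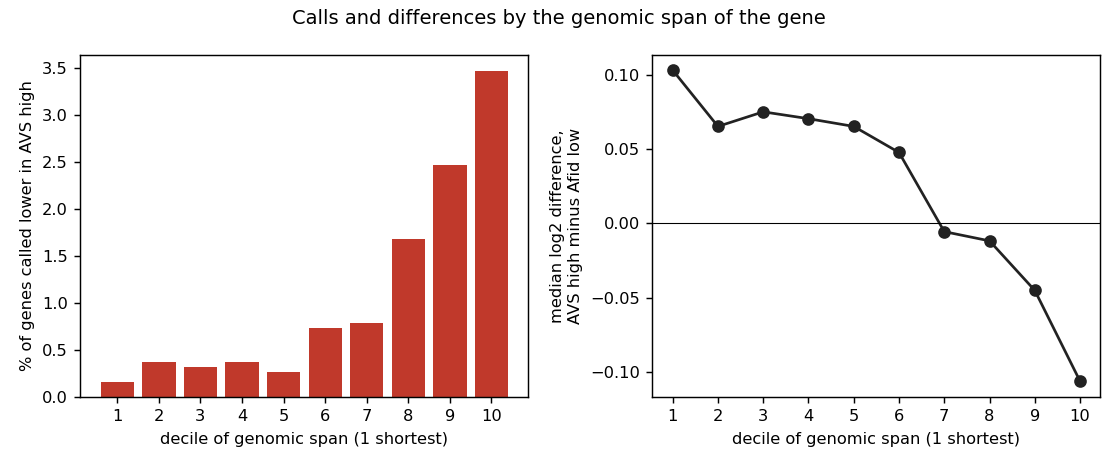
Left, share of tested genes called lower in AVS high (edgeR, adjusted p under 0.05) in each decile of genomic span, from 0.158% to 3.47%. Right, the median log2 difference (AVS high minus Afid low) in the same deciles, which passes from 0.10 in the shortest to −0.11 in the longest genes.

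The control libraries did not enter the 7-library fit that called these genes. The control mean lay between the AVS high and Afid low means for 200 of them, and was nearer to Afid low on the log2 scale for 179 and nearer to AVS high for 23. The AVS low mean lay between for 201 and was nearer to Afid low for 135. Because the genes were called for the gap between AVS high and Afid low, most other groups would fall between, which adds no support. These are means of CPM, in which the highest library weighs most. As a median over the 202 genes of centred log2 CPM, the AVS high libraries stood at −0.61, −0.54, −0.50 and −0.81 and the Afid low libraries at 0.63, 0.69 and 0.64. Control replicates 1 to 4 stood at 0.67, −0.16, 0.14 and 0.19, so control replicate 1 was at the Afid low level.

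AVS low replicates 1, 2, 4 and 5 stood at −1.13, −0.07, 0.62 and 0.36 on the same measure. Replicate 1 was below every AVS high library for 124 of the 202 genes, while AVS low replicate 4 reached the lowest Afid low library for 154, as control replicate 1 did for 146. The median SD of log2 CPM over the 202 genes was 0.81 within AVS low and 0.40 within control, against 0.30 and 0.29 for 5466 genes of like level that were not called. Within AVS high and Afid low it was 0.32 and 0.18, against 0.32 and 0.22, but the call itself favours genes with little spread there. The libraries of AVS low thus spanned a wider range on these genes than the 7 libraries compared, and the part of such variation between libraries of 1 treatment in the comparison was not tested.

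**Figure D4:**
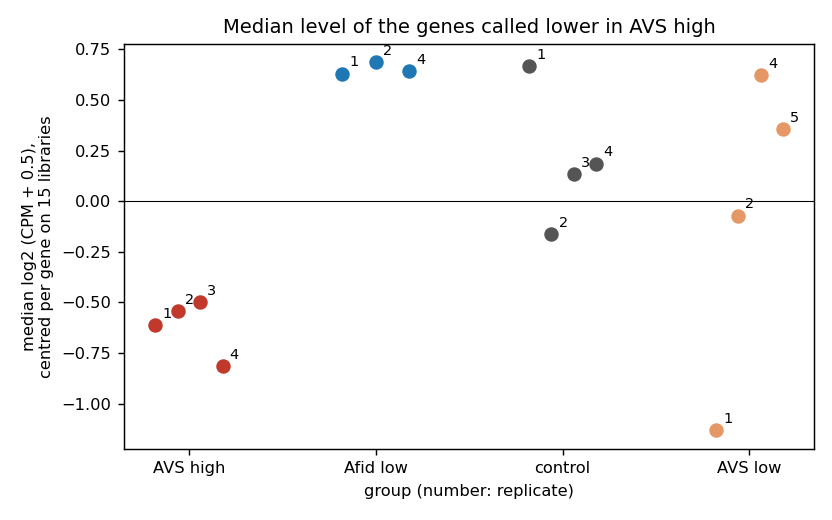
Median over the 202 genes called lower in AVS high of log2 (CPM + 0.5), centred for each gene on the mean of 15 libraries; each point is 1 library, numbered by replicate. AVS high lies between −0.81 and −0.50 and Afid low between 0.63 and 0.69 by the choice of the genes, control spreads from −0.16 to 0.67 and AVS low from −1.13 to 0.62.

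Only 3 genes passed the threshold in the other direction. The ribosomal protein gene rpl10 (chromosome 23, 19712557 to 19715859, minus strand) measured 64.6, 46.7, 21.6 and 27.5 CPM in AVS high and 14.7, 15.2 and 12.6 CPM in Afid low, far below other ribosomal protein genes such as rpsa (4094 to 5780 against 2677 to 3534 CPM). It was 2.82-fold higher in AVS high (log2 1.497 ± 0.32 SE, adjusted p 0.0430 by edgeR). The phospholipid phosphatase gene plpp5 measured 26.9, 25.9, 36.5 and 35.5 CPM against 18.3, 13.9 and 17.3 CPM (log2 0.92 ± 0.20 SE, adjusted p 0.0457 by edgeR). The gene zgc:158432 measured 8.94, 11.7, 14.9 and 2.11 CPM against 1.05, 1.61 and 1.49 CPM (log2 2.74 ± 0.54 SE, adjusted p 0.0286 by edgeR), with AVS high replicate 4 only just above the Afid low libraries.

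The 3 calls were lost without any 1 Afid low library. The call of rpl10 was also lost without AVS high replicate 2 or 4, that of plpp5 without AVS high replicate 3 or 4, and that of zgc:158432 without AVS high replicate 3, with adjusted p up to 0.221, 0.229 and 0.140 by edgeR. Among genes higher in AVS high that did not pass by edgeR, the steroid sulfotransferase gene sult2st2 measured 39.9 to 46.7 CPM against 20.8 to 29.6 (log2 0.78, adjusted p 0.0535 by edgeR). The gut and liver nuclear receptor gene hnf4g measured 14.1 to 19.5 CPM against 8.53 to 9.14 (log2 0.90), and gpat3, of the first step of triglyceride synthesis, 9.62 to 21.5 CPM against 6.09 to 7.29 (log2 1.12). IZUMO1R (log2 0.90), gbx1 (log2 1.301), psph (log2 0.73), ptpa (log2 3.37) and bxdc2 (log2 0.69) followed, with adjusted p up to 0.0689 by edgeR. None of these uncalled genes overlapped between groups, because the rule for naming genes on this side required it. The large difference of ptpa is uneven and near the floor, at 1.26, 10.5, 7.41 and 1.06 CPM in AVS high. In Afid low ptpa held 0.307 to 0.637 CPM, a mean of 6 reads. DESeq2 called ptpa and the translation initiation gene eif3ea (adjusted p 0.00067 and 0.0028) besides the 3 genes above among its 5 of smallest p on this side. It also called sult2st2, hnf4g, gpat3, IZUMO1R, gbx1, psph and bxdc2 higher, with adjusted p of 0.0041 to 0.0094 by DESeq2.

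Many abundant housekeeping genes were higher in AVS high by a small amount that did not pass gene by gene. Of 83 cytosolic ribosomal protein genes 77 were higher, with a median of 0.48 against 0.03 for all genes, 35 were higher and 0 lower at an unadjusted p under 0.05, and rpl10 alone was called. Of 34 nuclear genes of respiratory complex I 33 were higher (median 0.39), and of 50 genes of complexes II to V 44 were higher (median 0.37). Translation factors were higher for 57 of 76 (median 0.28) and proteasome subunits for 32 of 40 (median 0.21), and edgeR called no gene of these 4 lists. DESeq2 called 8 cytosolic ribosomal, 3 complex I, 3 complex II to V, 9 translation factor and 1 proteasome gene higher, and none lower. Of all its genes DESeq2 called 0.826% higher and 3.11% lower. Without AVS high replicate 3 the medians were 0.28 for the ribosomal list, 0.19 for complex I and 0.14 for complexes II to V, and without Afid low replicate 2 that of the proteasome was 0.10.

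Exocrine pancreas genes, the digestive enzymes of the gland, had the largest list median among lists of 10 or more tested members, at 0.63 with 21 of 23 higher, none called by edgeR and 2 called higher by DESeq2. The chymotrypsin-like gene ctrl measured 1311, 960, 1929 and 1597 CPM in AVS high and 999.6, 756 and 798 CPM in Afid low, with AVS high replicate 2 inside the Afid low range (log2 0.76 ± 0.23 SE, adjusted p 0.123 by edgeR). Keratins and epidermal genes were higher for 29 of 38 (median 0.33), antioxidant genes for 28 of 34 (median 0.29) and lens genes for 44 of 52 (median 0.27), and edgeR called none of these. DESeq2 called 2 keratin genes higher and 1 lower, and 2 antioxidant genes higher, where it called 0.826% of all its genes higher and 3.11% lower. Without AVS high replicate 3 the medians were 0.34 for the pancreas list, 0.08 for keratins and 0.12 for antioxidant genes, and without Afid low replicate 2 that of the lens list was 0.11.

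Library levels of the ribosomal, respiratory, proteasome, pancreas, keratin, antioxidant and lens lists overlapped between the groups, while those of the translation factors did not (0.08 to 0.25 in AVS high and −0.21 to −0.09 in Afid low). The ribosomal list stood between −0.18 and 0.52 in the AVS high libraries, between −0.62 and 0.07 in the Afid low libraries and between −0.20 and 0.79 in the control libraries. The pancreas list ran from −0.37 to 1.196 in AVS high and from −0.49 to 0.32 in Afid low, and its lowest library was a control at −1.59. The channel list did not overlap, at −0.29 to 0.02 in AVS high and 0.055 to 0.30 in Afid low. Its control libraries ran from −0.05 to 0.24 and its AVS low libraries from −0.26 to 0.21, across both groups. The transmitter synthesis and loading list was barely apart, up to 0.0012 in AVS high and from 0.0077 in Afid low. Among all 46 lists, only these 2 and the translation factors were apart. With 7 libraries, a few of 46 lists can come apart by the order of the libraries alone, and no list was tested. Of single genes, 8.54% were apart on the lower side and 8.55% on the higher side. The receptor list overlapped (−0.30 to 0.18 and −0.01 to 0.24), as did the neuron, axon guidance and heart lists.

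**Figure D5:**
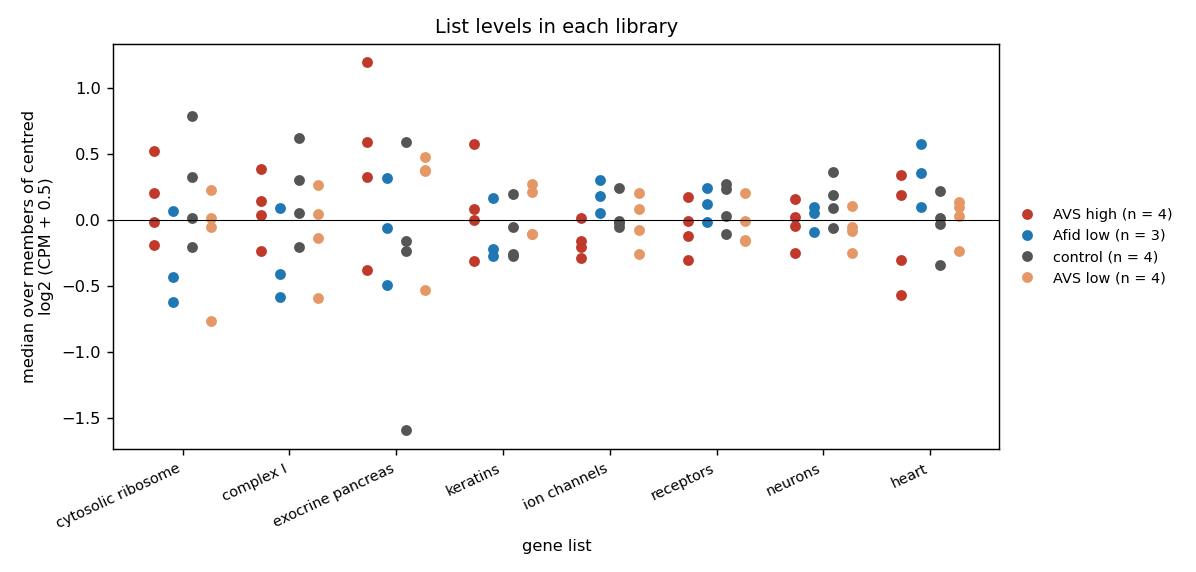
Level of 8 gene lists in each library, as the median over tested members of log2 (CPM + 0.5) centred on 15 libraries; each point is 1 library. Of the 8 lists drawn, AVS high and Afid low points lie apart for the ion channel list alone (−0.29 to 0.02 and 0.055 to 0.30), which was not tested. They overlap for every other list drawn, among them the ribosomal (−0.18 to 0.52 and −0.62 to 0.07), pancreas, receptor, neuron and heart lists.

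Genes of the pathway that atorvastatin inhibits did not pass the test. Of 21 tested sterol synthesis genes 17 were higher in AVS high and none was called by edgeR or DESeq2, with a median of 0.26. The isomerase gene idi1 measured 40.9, 43.9, 46.5 and 51.4 CPM in AVS high and 37.1, 27.2 and 26.5 CPM in Afid low, without overlap (log2 0.59 ± 0.19 SE, adjusted p 0.141 by edgeR). The lanosterol demethylase gene cyp51 measured 26.0, 11.6, 14.5 and 20.5 CPM against 12.3, 9.53 and 10.3 CPM, where the groups overlapped (log2 0.76 ± 0.27 SE, adjusted p 0.183 by edgeR). The gene hmgcs1, of the step before the inhibited enzyme, measured 14.1 to 21.4 CPM against 11.2 to 19.6 (log2 0.26 ± 0.23 SE), sqlea differed by 0.55 ± 0.50 (SE) and lss by 0.53 ± 0.55 (SE).

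The target gene hmgcra measured 1.37, 0.5, 0.253 and 0.227 CPM in AVS high and 0.0952, 0.384 and 0.707 CPM in Afid low, and was too low to be tested. The regulator gene srebf2 measured 90.6, 104, 79.9 and 128 CPM against 50.3, 74.6 and 77.6 CPM, without overlap but not past the threshold (log2 0.58 ± 0.21 SE, adjusted p 0.204 by edgeR). Its escort gene scap went the other way, with 14.8, 17, 22.7 and 13.4 CPM against 26.8, 26.5 and 41.8 CPM. The gene scap did not pass by edgeR and was called lower by DESeq2 (log2 −0.90 ± 0.23 SE, adjusted p 0.0812 by edgeR and 0.0201 by DESeq2). The low density lipoprotein receptor gene ldlra differed by −0.28 ± 0.21 (SE). Coenzyme Q synthesis genes were higher for 7 of 10 (median 0.25) and prenylation genes for 18 of 26 (median 0.27), with none called by edgeR or DESeq2. The sterol synthesis and prenylation medians were 0.13 and 0.15 without AVS high replicate 3, that of sterol synthesis was 0.13 without Afid low replicate 1, and that of coenzyme Q synthesis was 0.15 without Afid low replicate 4.

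TRP channel genes, the family of afidopyropen's target in insects, were higher for 15 of 33 tested, with a median of −0.04 (without AVS high replicate 3 −0.15, without Afid low replicate 1 −0.17). None was called by edgeR and 1 was called lower by DESeq2 (trpm3, adjusted p 0.0092), which called 3.11% of all its genes lower. The gene trpv1 measured 5.15, 2.5, 5.30 and 6.72 CPM in AVS high and 4.76, 4.38 and 4.74 CPM in Afid low (log2 0.09 ± 0.33 SE). Its relatives trpv4 (log2 −0.19 ± 0.35 SE) and trpv6 (log2 0.07 ± 0.48 SE) overlapped between the groups as well. The smallest p in the family was that of trpm3, with 24.9, 34.5, 30.5 and 22.7 CPM against 45.1, 58.8 and 45.5 CPM, where the groups did not overlap and the gene did not pass (log2 −0.83 ± 0.20 SE, adjusted p 0.0623 by edgeR).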

How the data were processed

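Read counts per gene were deposited by the authors as 1 table per exposed group beside the same 4 control libraries, per the file headers. The authors' tools were fastp, HISAT2, featureCounts and DESeq2, per the submitters' processing notes. No source used here gives their versions, the strand setting or the genome build. The AVS high and Afid low tables, with 25473 and 25686 genes, were joined by gene identifier, which left 25037. The control counts were identical (0 differed). The 46 deposited columns of normalized values per library were not used.

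Counts were tested with edgeR 4.0.16 (R 4.3.3; TMM scaling, filterByExpr, quasi-likelihood test, Benjamini-Hochberg threshold 0.05) on the 7 libraries. The log2 difference is AVS high minus Afid low, and its SE is the size of that difference over the square root of F. Printed CPM use 1 TMM scaling over 15 libraries. Named genes were the 10 of smallest p in each direction, filled on the higher side from genes with at least 20 reads, no overlap and a proper symbol, the called genes, 8 sterol genes, 3 TRPV genes and 2 of smallest p per list. List members come from 46 lists, and genes named beyond this rule were chosen after their values were seen. The members and lists were chosen with earlier results of these data known. DESeq2 1.42.0, limma-voom (limma 3.58.1), other scalings, other sets of libraries and leaving out each library were alternatives. The fit was tested on simulated data in which genes varied independently. No shift of a library shared over many genes was simulated, so that check does not cover such shifts. Correlations within groups ran from 0.946 to 0.973 and between groups from 0.932 to 0.959. The median was 0.951 within AVS high, 0.969 within Afid low and 0.949 between groups, so AVS high libraries were about as like Afid low libraries as each other. No pair of libraries was a duplicate (chi-square per degree of freedom at least 7.76). Depth of 8.63 to 14.4 M reads limits precision for genes of a few CPM. Some results that the rule for named genes would include are not reported here.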

Additional observations from a re-analysis of the deposited data

Results flagged for a closer look

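The 125 groups of 4 libraries examined were named genes in AVS high, with a few library measures in AVS high, control and AVS low. Of these, 4 had 1 library far from the other 3, all of them genes. The cutoff flags about 1 in 20 by chance for independent, normally spread values, a condition these CPM need not meet. In AVS high, mkl2a measured 6.82 CPM in replicate 3 against 3.15 to 3.62 in the others, and txn2, a mitochondrial thioredoxin gene, 47.6 CPM in replicate 3 against 40.9 to 41.5. The apolipoprotein B gene apoba measured 57.7 CPM in AVS high replicate 1 against 16.9 to 23.4 in the others, a value inside its Afid low range of 52.3 to 62.8 CPM. The glucuronosyltransferase gene ugt1b7 measured 1.79 CPM in AVS high replicate 1 against 0.5 to 0.589.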

How the results depend on the processing

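Against 202 genes lower and 3 higher in AVS high, edgeR called 341 and 6 with no low-count filter, limma-voom 326 and 6, DESeq2 602 and 160, and size factors by RLE 208 and 3. The 15-library fit called 0 and 0. Adding the control libraries to the fit gave 265 and 1, and adding the AVS low libraries 0 and 0 (285 and 4 without AVS low replicate 1). Leaving out each library in turn gave 22 to 443 lower and 0 to 50 higher, and with DESeq2 153 to 914 and 5 to 380. Without AVS high replicates 1 to 4, DESeq2 called 914, 551, 516 and 328 lower and 380, 99, 77 and 31 higher, and without Afid low replicate 1 351 and 121. With a replicate block the counts were 409 and 59. Same-numbered libraries correlated at 0.0962, 0.22 and 0.0839 in their deviations from the group means. AVS high replicates 1 and 2 and Afid low replicates 2 and 4 correlated best with their own number. AVS high replicate 4 and Afid low replicate 1 correlated best with another number (0.118 and 0.278). The labels do not say what a replicate number stands for, and whether it marks a shared batch was not tested. The cause of these shifts was not tested. The fits with added libraries, those without AVS low replicate 1, DESeq2 with a library left out and the removal of the span trend were chosen after seeing the data. None of the 28 named genes past the threshold reversed, which their choice from these libraries favoured. Reversals were not counted for named genes that did not pass. Of 506 alternative list medians, 20 moved by more than the spread between libraries.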

Other observations

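Growth hormone, gh1, varied widely between libraries of a treatment, with 11.2, 6.25, 43.9 and 31.3 CPM in AVS high, 22.5, 2.46 and 8.84 CPM in Afid low, and overlapping groups (log2 1.05 ± 0.64 SE). The cone channel gene cnga3b, needed for the light response of cone photoreceptors, measured 15.03, 11, 7.16 and 8.53 CPM in AVS high and 21.7, 20.4 and 23.6 CPM in Afid low, without overlap. It did not pass by edgeR and was called lower by DESeq2 (log2 −1.08 ± 0.25 SE, adjusted p 0.0535 by edgeR and 0.0056 by DESeq2). The photoreceptor list as a whole had 34 of 60 members higher and a median of 0.05 (−0.04 without AVS high replicate 2 or without Afid low replicate 4). The desaturase gene fads2, of polyunsaturated fatty acid synthesis, measured 60.8, 28.5, 42.9 and 45.5 CPM in AVS high and 21.9, 27.4 and 20.1 CPM in Afid low, also without overlap. It did not pass by edgeR and was called higher by DESeq2 (log2 0.94 ± 0.23 SE, adjusted p 0.0728 by edgeR and 0.0108 by DESeq2).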
